A study of Mus musculus with 4 samples.

Results

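Transporters of glucose, amino acids and monocarboxylates were compared between sub-lines of the BALB/c mouse mammary carcinoma 4T1, named 4T1-A and 4T1-S. The members were every array probe, other than controls, whose gene name in the scanner files begins with Slc1a, Slc2a, Slc3a, Slc5a, Slc6a, Slc7a, Slc16a, Slc38a or Slc43a and a digit. This gave 146 of 41174 probes, on 155 of 43379 spots, for 90 of 27673 gene names. One of them, Slc7a6os, is a neighbour of Slc7a6 on the opposite strand and not a transporter. Total RNA of each sub-line was measured on 2 one-colour arrays, and the series' title calls 4T1-S highly immunogenic. The labels give the same parental line for all 4 samples and no treatment, genotype difference, culture condition or way in which either sub-line was derived. Nothing in them states that the 2 arrays per sub-line stem from different cultures. The p-values thus reflect the spread of these arrays alone, which may be technical. The arrays lay on 1 slide, where position and sub-line cannot be told apart. In bulk RNA, fewer cells carrying a transcript and less RNA per cell cannot be told apart.

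Carriers of the Slc families move small solutes across membranes. Slc2 proteins let hexoses pass down their gradient, and Slc5 proteins couple sugars, inositol, vitamins and anions to sodium. Some Slc16 proteins carry lactate and pyruvate together with protons. Amino acids enter through the Slc1, Slc6, Slc7, Slc38 and Slc43 families, and many Slc7 light chains reach the surface only when joined to a heavy chain, Slc3a2 or Slc3a1. In growing carcinoma cells glutamine, leucine and cystine carriers are part of the amino acid response, in which the transcription factor ATF4 raises uptake and synthesis genes when amino acids are short.

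Values are scaled signals, that is, processed intensities relative to the 75th percentile of their array, or their log2. A difference is the mean log2 of 4T1-S less that of 4T1-A, given with its standard error (SE, n = 2 arrays per sub-line) from limma fitted over all genes, and a gene was called at an adjusted p (Benjamini-Hochberg) under 0.05. Signals of different probes were not compared as levels. Between 54.9 and 59.2 percent of all spots were well above background on each array, the median difference of the 16156 genes tested was 0.13, and precision is limited by there being 2 arrays per sub-line. All 6 epithelial markers examined, among them Krt8 and Krt18, were well above background on all 4 arrays, with a summed scaled signal of 240 and 250 on the 4T1-A arrays, then 228 and 191 on the 4T1-S arrays. Epcam fell by 3.78 in 4T1-S on the log2 scale, Krt14 fell by 2.06 and Cdh1 fell by 1.11, all called. Krt5 lay higher on both 4T1-S arrays and did not pass (0.52 ± 0.20). Of the leukocyte markers 3 of 5 were above background on all arrays (summed signal 0.807 and 0.867 in 4T1-A, 0.684 and 0.674 in 4T1-S). Cd68 made up most of that sum and differed by -0.70 ± 0.20, while Lyz2 differed by 0.42 ± 0.22 and Cd79a by 0.51 ± 0.36, none of them called. The defining gene Ptprc was above background on 1 array of 4T1-S only. The 4 fibroblast markers had a summed signal of 0.446 and 0.672 in 4T1-A, then 0.948 and 0.954 in 4T1-S. Of these markers 1, Pdgfra, was above background on all arrays, and of the 3 endothelial markers 0. The part of these genes in the results was not tested.

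Of the 90 transporter genes, 39 were not well above background on any array, 16 on 1 to 3 arrays and 35 on all 4. The share of member probes above background was 39.7 and 43.2 percent in 4T1-A and 45.9 and 44.5 percent in 4T1-S. For each gene the probe brightest on average was used, and 44 genes were tested because 1 sub-line or both had that probe above background on each array. Where 1 array was left out, its sub-line kept a single array, which the fit assumes to vary like the pair of the other sub-line, so the adjusted p-values of such fits rest on that pair and on the spread pooled over genes. Of the genes tested, 9 were not above background on every array, so that some could enter only through the sub-line in which they were high. Genes such as Slc2a3, a high-affinity glucose carrier, Slc6a14 and Slc7a3, amino acid carriers, and Slc43a1, a sodium-independent leucine carrier, gave no signal above background on any array.

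At the threshold, 1 transporter gene rose in 4T1-S, 2 fell and 41 did not pass. Among all genes tested, 4 percent were called higher and 3.02 percent lower, so the share of transporters called was near the background of 7.03 percent. The fall of the fructose carrier Slc2a5 and of the myo-inositol carrier Slc5a3 and the rise of the heavy chain Slc3a1 were the 3 calls. Slc2a5 and Slc3a1 entered the test only through the sub-line in which they were high, so these 2 calls support nothing about the transporters as a group. At an unadjusted p under 0.05 there were 20 higher genes and 3 lower ones among the 44, beside 20.5 and 8.2 percent of all genes tested. These counts include genes not above background on every array. Of the 35 genes above background on all arrays, 16 were higher and 1 lower, beside 15.2 and 7.69 percent of the 14192 such genes. A difference above 0 was found for 35 of the 44, beside 63 percent of all. A change of 2-fold or more was found upward for 3 and downward for 2, beside 2.47 and 2.74 percent of all. Both 4T1-S arrays lay above both 4T1-A arrays for 31 and below for 6, beside 40.6 and 18.5 percent of all genes, 59.1 percent in either direction. In the fit over probes, 1 of 64 tested rose, a probe of Slc7a11, and 2 fell, those of Slc2a5 and Slc5a3. Of all probes, 2.21 percent rose and 2.37 percent fell, 4.58 percent together. The median difference was 0.44, and over the 35 genes above background on all arrays it was 0.43, beside 0.10 for the 14192 such genes overall. These medians moved with the scaling. With scaling to the array median, which shifts every gene alike, the transporters' median was 0.14 and that of all genes tested -0.16. The 2 medians lay closer together with cyclic loess (0.17 and 0.03), quantile normalization (0.28 and 0.07) and normexp background correction (0.36 and 0.15). With spike-in scaling they were 0.53 and 0.23.

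**Figure D1:**
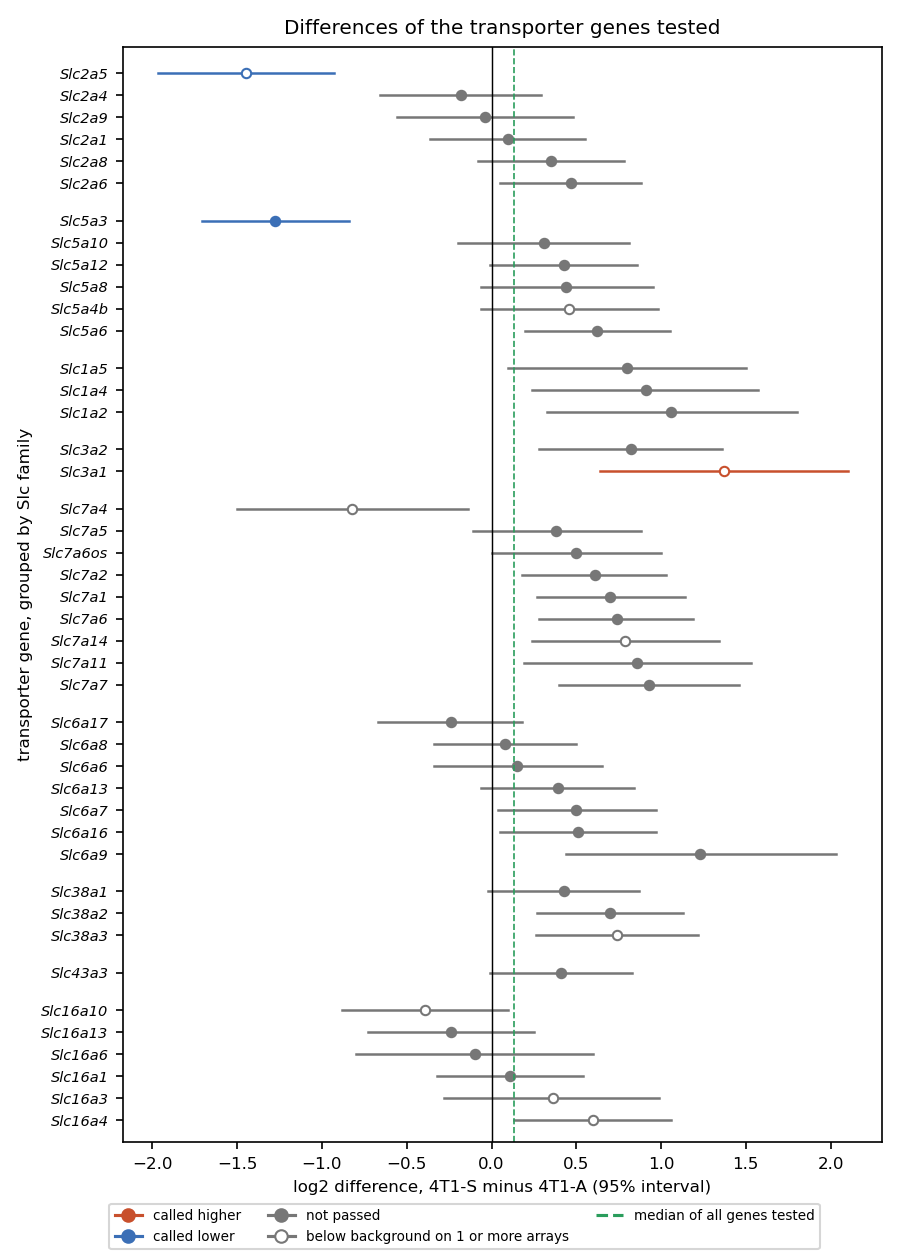
Log2 difference (4T1-S minus 4T1-A) with its 95% interval for 43 of the 44 transporter genes tested, grouped by Slc family, with open points for genes below background on 1 or more arrays. Slc2a5 and Slc5a3 lie at -1.45 and -1.28, and Slc3a1 at 1.37. Most genes of Slc1, Slc3, Slc5, Slc6, Slc7 and Slc38 lie to the right of the dashed median of all genes tested, 0.13, as does Slc43a3.

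Among the facilitative hexose carriers, 6 of 11 genes were tested, 0 rose, 1 fell and 5 did not pass. At an unadjusted p under 0.05 the family held 1 gene higher and 1 lower, beside 20.5 and 8.2 percent of all genes tested. Slc2a1, the basal glucose carrier GLUT1, had scaled signals of 13.6 and 15.8 on the 4T1-A arrays, then 14.5 and 16.9 on the 4T1-S arrays. The sub-lines overlapped, and the difference was 0.10 ± 0.20 (95% interval -0.36 to 0.55, limma adjusted p = 0.782). It was -0.01 without 4T1-A replicate 1 or without 4T1-S replicate 2.

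Slc2a5, the fructose carrier GLUT5, gave 0.161 and 0.112 on the 4T1-A arrays, then 0.0481 and 0.0505 on the 4T1-S arrays. Its probe was well above background on both 4T1-A arrays and on neither 4T1-S array, and the fold is therefore a lower bound. In 4T1-S the signal was at least 2.35-fold lower (fitted difference -1.45 ± 0.22, limma adjusted p = 0.00974). Leaving out the first (adjusted p = 0.0872) or the second 4T1-S array (0.0901) ended the call, as did testing genes with no filter (0.0821). Scaling to the spike-in controls ended the calls of all 3 genes. With normexp background correction, which compresses low signals, the difference was -0.29 (adjusted p = 0.259).

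The other hexose carriers tested did not pass. Slc2a6, a carrier found mainly on lysosomes, gave 0.321 and 0.328 on the 4T1-A arrays, then 0.441 and 0.455 on the 4T1-S arrays, with no overlap (0.47 ± 0.18, limma adjusted p = 0.142). Slc2a8, an intracellular hexose carrier, differed by 0.35 ± 0.19, Slc2a4, the insulin-responsive carrier, by -0.18 ± 0.21 and Slc2a9, a urate carrier, by -0.04 ± 0.23. Arrays of the sub-lines overlapped for Slc2a4 and Slc2a9.

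Of the sodium-coupled Slc5 carriers 6 of 13 were tested, 0 rose, 1 fell and 5 did not pass. Without adjustment 1 was higher and 1 lower at p under 0.05, beside 20.5 and 8.2 percent of all genes tested. Slc5a3, which takes up the osmolyte myo-inositol, gave 2.33 and 2.28 on the 4T1-A arrays, then 1.02 and 0.884 on the 4T1-S arrays. Both 4T1-S arrays were well below both 4T1-A arrays, and all 4 were above background. The gene fell 2.43-fold (-1.28 ± 0.19, limma adjusted p = 0.00780). Without 4T1-S replicate 2 the difference was -1.17 and did not pass (adjusted p = 0.0922), nor did the gene pass with no background filter (0.0598).

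Slc5a6, the sodium-coupled carrier of biotin and pantothenate, went the other way, with 3.59 and 3.34 on the 4T1-A arrays, then 5.18 and 5.51 on the 4T1-S arrays. The groups did not overlap, and the difference of 0.62 ± 0.18 did not pass (limma adjusted p = 0.0790). The lactate carriers Slc5a8 (0.44 ± 0.22) and Slc5a12 (0.43 ± 0.19), and Slc5a10 (0.31 ± 0.22), were dim but above background on all arrays and did not pass. Slc5a4b was above on 1 of 2 4T1-A arrays (0.46 ± 0.22).

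**Figure D2:**
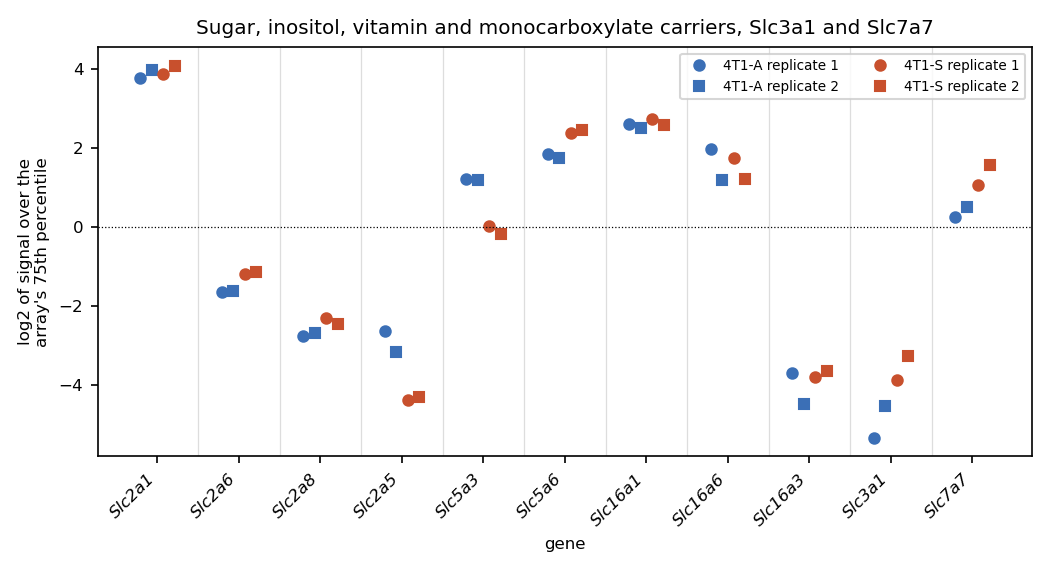
Log2 of the scaled signal on each array (circles for replicate 1, squares for replicate 2, blue for 4T1-A, red for 4T1-S; the dotted line is the array's 75th percentile) for carriers of sugars, inositol, vitamins and monocarboxylates, with Slc3a1 and Slc7a7. Slc5a3 and Slc2a5 lie lower on both 4T1-S arrays, while Slc2a1, Slc16a1, Slc16a6 and Slc16a3 overlap between the sub-lines.

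The heavy chains were both tested, with 1 gene risen, 0 fallen and 1 not passed. Without adjustment 2 were higher and 0 lower at p under 0.05, beside 20.5 and 8.2 percent of all genes tested. Slc3a1, which carries cystine and dibasic amino acid light chains to the apical membrane, gave 0.0248 and 0.0437 on the 4T1-A arrays, then 0.0690 and 0.105 on the 4T1-S arrays. It was above background on both 4T1-S arrays and on neither 4T1-A array, and its signal in 4T1-S was at least 1.71-fold higher (fitted difference 1.37 ± 0.32, limma adjusted p = 0.0441). Its usual partner Slc7a9 was not above background on any array. Slc3a1 has 1 probe, which did not pass in limma's fit over all probes (adjusted p = 0.0592). The call ended on leaving out the first (adjusted p = 0.0975) or the second 4T1-S array (0.201), and with scaling to the median, quantile normalization or cyclic loess (0.107, 0.164 and 0.174). Normexp gave 0.57 (adjusted p = 0.0817), and without the background filter the adjusted p was 0.144.

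Slc3a2, the heavy chain 4F2hc of the leucine and cystine exchangers, gave 76.1 and 104 on the 4T1-A arrays, then 138 and 179 on the 4T1-S arrays. The 2 sub-lines did not overlap, but the difference of 0.82 ± 0.23 did not pass (95% interval 0.28 to 1.36, limma adjusted p = 0.0738). A dimmer probe of the gene gave 0.06 ± 0.28. The difference was 0.59 (adjusted p = 0.331) without 4T1-A replicate 1, 1.05 (0.00753) without 4T1-A replicate 2 and 0.44 (0.147) with the mean of both probes. With the trend and robust options of limma the gene passed (0.0414).

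Of the Slc7 light chains and cationic amino acid carriers, with the neighbour Slc7a6os, 9 of 16 genes were tested and limma called 0 higher and 0 lower. Without adjustment, 7 were higher and 1 lower at p under 0.05. In 8 of the 9 both 4T1-S arrays lay above both 4T1-A arrays, beside 40.6 percent of all genes tested, and 20.5 percent of all were higher without adjustment. Slc7a7, a light chain that exports cationic amino acids against neutral ones, gave 1.2 and 1.42 on the 4T1-A arrays, then 2.10 and 2.95 on the 4T1-S arrays. Among the probes used for the family's 9 tested genes it had the largest difference (0.93 ± 0.23, 95% interval 0.40 to 1.46, limma adjusted p = 0.0520). It differed by 0.81 (adjusted p = 0.129) without 4T1-A replicate 1 and by 1.05 (0.00736) without 4T1-A replicate 2. The gene passed with the mean of probes (0.0477), which changes the other genes tested and not this gene's only probe.

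Slc7a6, the related light chain of wider tissue range, gave 2.55 and 2.68 on the 4T1-A arrays, then 3.95 and 4.79 on the 4T1-S arrays. The difference of 0.74 ± 0.19 did not pass (limma adjusted p = 0.0625), and another probe above background on all arrays gave -0.06. Slc7a6os, its neighbour on the other strand, differed by 0.50 ± 0.22, and the source strand of these signals was not tested. Slc7a1, the main arginine and lysine carrier, gave 0.421 and 0.406 on the 4T1-A arrays, then 0.720 and 0.631 on the 4T1-S arrays (0.70 ± 0.19, limma adjusted p = 0.0628). Its replicates lay close together within each sub-line.

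Slc7a5, the leucine carrier LAT1, gave 11.6 and 15.9 on the 4T1-A arrays, then 17.5 and 18.0 on the 4T1-S arrays. The difference of 0.38 ± 0.21 did not pass (limma adjusted p = 0.278). Slc7a2, an arginine carrier, differed by 0.61 ± 0.19 and the lysosomal member Slc7a14 by 0.79 ± 0.24, the latter dim and above background on 1 of 2 4T1-A arrays. Slc7a4, an orphan relative, was the exception in direction, with 0.0830 and 0.110 on the 4T1-A arrays, then 0.0715 and 0.0409 on the 4T1-S arrays (-0.82 ± 0.29, limma adjusted p = 0.118). Slc7a4 ranged with 1 array left out from -1.22 without 4T1-S replicate 1 (adjusted p = 0.0996) to -0.42 without 4T1-S replicate 2 (0.442), and at -1.02 without 4T1-A replicate 1 it passed (0.0307). Slc7a14 differed by 0.55 (0.383) without 4T1-A replicate 1 and by 1.03 (0.00864) without 4T1-A replicate 2.

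Slc7a11, the cystine-glutamate antiporter xCT that supplies cysteine for glutathione, was measured by 4 probes. The probe used for the gene gave 0.421 and 0.739 on the 4T1-A arrays, then 1.15 and 0.891 on the 4T1-S arrays (0.86 ± 0.29, limma adjusted p = 0.106). A further probe above background on all arrays gave 0.323 and 0.658 on the 4T1-A arrays, then 0.968 and 1.3 on the 4T1-S arrays (1.28 ± 0.34, adjusted over all probes to 0.0800).

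The third Slc7a11 probe passed in limma's fit over all 23669 probes tested, with 0.0471 and 0.0804 on the 4T1-A arrays, then 0.164 and 0.184 on the 4T1-S arrays (1.5 ± 0.28, adjusted p = 0.0276). It was above background on 1 of 2 4T1-A arrays. On each of the 3 probes both 4T1-S arrays lay above both 4T1-A arrays, and the fourth was not above background on any. These probes read the same 4 RNA samples and are not replicates. With the mean of its probes the gene passed (1.21, adjusted p = 0.0467), while it differed by 0.46 (0.501) without 4T1-A replicate 1 and by 1.27 (8.01e-04) without 4T1-A replicate 2. The third probe did not pass when 4T1-S replicate 1 (adjusted p = 0.0877) or replicate 2 (0.139) was left out, nor with scaling to the median (0.0582), quantile normalization (0.0625), cyclic loess (0.0815), spike-in scaling (0.572) or no filter (0.124).

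The promoter of Slc7a11 is shown because it is the only 1 of the 10 windows found for amino acid response transporters with a match to the ATF4 amino acid response element. That element was searched as TGATGNAA on both strands. These 10 windows belong to 7 genes, and the listed transporters Slc1a5, Slc7a3 and Slc7a5 had no window to search. The 250 bases before the start site were read from the RefSeq promoter table (GRCm38.p6), with matches in capitals, and a window of Slc7a7 is printed beside it for comparison. The Slc7a11 window is chr3:50443614-50443863 on the minus strand, and its 2 matches begin 66 and 47 bases before the start. The Slc7a7 window is chr14:54417703-54417952 on the minus strand, and its match begins 243 bases before that start. Slc7a7 has other windows. In chr14:54417945-54418194 a match begins 141 bases before the start, while chr14:54409473-54409722, chr14:54410204-54410453 and chr14:54417680-54417929 hold none.
Slc7a11: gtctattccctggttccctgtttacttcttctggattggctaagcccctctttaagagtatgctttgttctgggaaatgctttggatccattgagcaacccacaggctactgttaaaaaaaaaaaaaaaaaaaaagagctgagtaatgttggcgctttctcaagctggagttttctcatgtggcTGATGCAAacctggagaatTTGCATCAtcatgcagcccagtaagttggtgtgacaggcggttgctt
Slc7a7: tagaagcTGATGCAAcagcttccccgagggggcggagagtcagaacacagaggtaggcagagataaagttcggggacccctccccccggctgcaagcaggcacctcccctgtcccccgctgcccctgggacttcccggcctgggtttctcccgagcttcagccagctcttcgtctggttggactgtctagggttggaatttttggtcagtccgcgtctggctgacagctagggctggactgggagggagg

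Promoter windows were found for 62 of the 90 transporter genes. The element matched 3 of their 85 windows, 3.53 percent, and 3.45 percent of all 32851 windows, so the transporters' share was near that of all promoters. The antioxidant response element, searched as TGACNNNGC on both strands, matched 12.9 percent of the transporter windows and 10.2 percent of all. It matched 5 of the 10 windows of amino acid response transporters, those of Slc38a2, Slc43a1, Slc6a9 and Slc7a1. The E-box CACGTG matched 11.8 and 6.02 percent, and the hypoxia core, ACGTG or GCGTG, which each E-box also contains, matched 47.1 and 38.6 percent. Windows of neighbouring starts of 1 gene can overlap, and a match describes letters and is not a site.

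Glutamate and neutral amino acid carriers of Slc1 were tested for 3 of 7 genes, and limma called 0 higher and 0 lower. Without adjustment 3 were higher and 0 lower at p under 0.05, beside 20.5 and 8.2 percent of all genes tested. Slc1a5, the glutamine carrier ASCT2, gave 14.3 and 24.8 on the 4T1-A arrays, then 27.3 and 39.4 on the 4T1-S arrays (0.80 ± 0.30, 95% interval 0.10 to 1.5, limma adjusted p = 0.135). The lower 4T1-S array lay just above the higher 4T1-A array. Slc1a4, which exchanges alanine, serine and cysteine, gave 2.65 and 4.85 on the 4T1-A arrays, then 7.0 and 6.48 on the 4T1-S arrays (0.91 ± 0.29, adjusted p = 0.0930), and another probe gave 0.48. Slc1a2, the main glutamate carrier of glia, was dim, with 0.0699 and 0.142 on the 4T1-A arrays, then 0.217 and 0.200 on the 4T1-S arrays (1.06 ± 0.32, adjusted p = 0.0823). Other probes of Slc1a2 were not above background on any array. All 3 genes depended on the 4T1-A arrays. Without 4T1-A replicate 1, Slc1a5, Slc1a4 and Slc1a2 differed by 0.40, 0.47 and 0.55 and did not pass (adjusted p = 0.575, 0.478 and 0.377), and without 4T1-A replicate 2 by 1.19, 1.34 and 1.57 (0.00194, 3.02e-04 and 1.69e-05). Without 4T1-S replicate 2 Slc1a5 differed by 0.53 (0.457).

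Of the Slc6 carriers 7 of 19 genes were tested, and limma called 0 higher and 0 lower. Without adjustment 3 were higher and 0 lower at p under 0.05, beside 20.5 and 8.2 percent of all genes tested. Slc6a9, the glycine carrier GlyT1, gave 11.0 and 22.7 on the 4T1-A arrays, then 31.5 and 43.8 on the 4T1-S arrays. The sub-lines did not overlap, yet the gap between the 4T1-A arrays was as wide as 1.04 on the log2 scale, and the difference of 1.23 ± 0.34 did not pass (limma adjusted p = 0.0693). Without 4T1-A replicate 1 it was 0.71 (adjusted p = 0.206), and without 4T1-A replicate 2 it was 1.75 (1.82e-06).

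The taurine carrier Slc6a6 differed by 0.15 ± 0.21 and the creatine carrier Slc6a8 by 0.08 ± 0.18 (95% interval -0.34 to 0.50). Slc6a8 gave 5.05 and 5.02 on the 4T1-A arrays, then 5.40 and 5.26 on the 4T1-S arrays, a narrow range on all 4 arrays. The proline carrier Slc6a7 (0.50 ± 0.20), the orphan Slc6a16 (0.51 ± 0.20), the GABA carrier Slc6a13 (0.39 ± 0.19) and the vesicular carrier Slc6a17 (-0.24 ± 0.18) were dim and did not pass. A second Slc6a17 probe, above background on 1 of 2 4T1-A arrays, went the other way (0.68 ± 0.27, adjusted p over all probes 0.165). The dopamine, serotonin and noradrenaline carriers Slc6a3, Slc6a4 and Slc6a2 were not above background on any array.

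Of the Slc38 carriers of glutamine and small neutral amino acids 3 of 5 genes were tested, with 0 called higher and 0 lower by limma. Without adjustment 2 were higher and 0 lower at p under 0.05, beside 20.5 and 8.2 percent of all genes tested. Slc38a2, the system A carrier induced by amino acid shortage, gave 25 and 27.6 on the 4T1-A arrays, then 43.7 and 41.5 on the 4T1-S arrays. Its replicates lay close together and the sub-lines well apart, and the difference was 0.70 ± 0.18 (95% interval 0.27 to 1.13, limma adjusted p = 0.0625). The gene passed with the trend and robust options of limma (0.0299), and with the mean of its probes the difference was 0.23 (0.667). The other 3 probes of Slc38a2, all above background on the 4 arrays, differed by 0.06, 0.06 and 0.08.

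Slc38a1, the other system A carrier of the family tested, gave 42.8 and 47.3 on the 4T1-A arrays, then 56.0 and 65.3 on the 4T1-S arrays (0.43 ± 0.19, limma adjusted p = 0.191). Its 6 probes ranged from -0.23 to 0.56. Slc38a3, a system N carrier, was dim and above background on 1 of 2 4T1-A arrays (0.74 ± 0.21, adjusted p = 0.0704), with 0.56 (0.371) without 4T1-A replicate 1 and 0.93 (0.0196) without 4T1-A replicate 2. Of the Slc43 family, 1 of 3 genes was tested and limma called 0, with 0 at an unadjusted p under 0.05. This was Slc43a3, a purine base carrier, with 0.0659 and 0.0657 on the 4T1-A arrays, then 0.0888 and 0.0859 on the 4T1-S arrays (0.41 ± 0.18, adjusted p = 0.182).

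**Figure D3:**
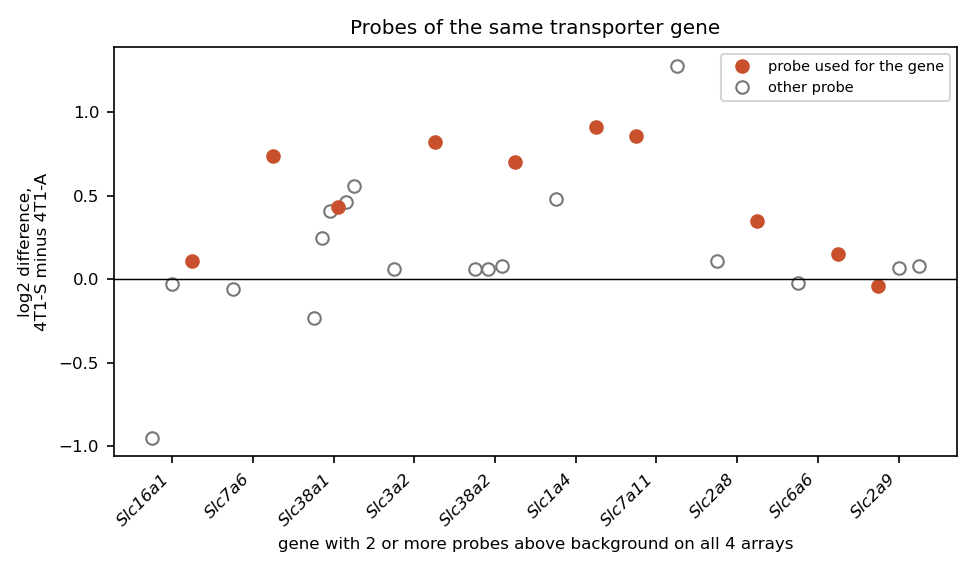
Log2 difference of each probe (4T1-S minus 4T1-A) for the 10 transporter genes with 2 or more probes above background on all 4 arrays, filled where the probe stands for the gene. Probes of Slc38a2 and Slc3a2 other than the one used lie near 0.06, and those of Slc16a1 span -0.95 to 0.11.

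The transporters listed as targets of the amino acid response were Slc1a4, Slc1a5, Slc3a2, Slc6a9, Slc7a1, Slc7a3, Slc7a5, Slc7a11, Slc38a2 and Slc43a1, of which 8 were tested. Limma called 0 of them higher and 0 lower, and 7 were higher and 0 lower at an unadjusted p under 0.05. Both 4T1-S arrays lay above both 4T1-A arrays for all 8, with differences from 0.38 to 1.23 and a median of 0.81. Among all genes tested 40.6 percent had such arrays and 20.5 percent were higher without adjustment. These values are of 1 probe a gene, and other probes of Slc38a2 and Slc3a2 lay between 0.06 and 0.08. The 4T1-A arrays also differed from each other. Replicate 1 was the lowest of the 4 arrays for 7 of the 8, where the ordering just given leaves only a 4T1-A array as lowest. It was lowest for 34.1 percent of all genes tested, which is not a like share, since 40.6 percent have that ordering. Replicate 2 of 4T1-A lay above replicate 1 by a median of 0.62 in the 8, beside 0.00 over all genes. Between the 4T1-S arrays the median gap of the 8 was -0.01. The cause of the gap between the 4T1-A arrays was not tested.

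**Figure D4:**
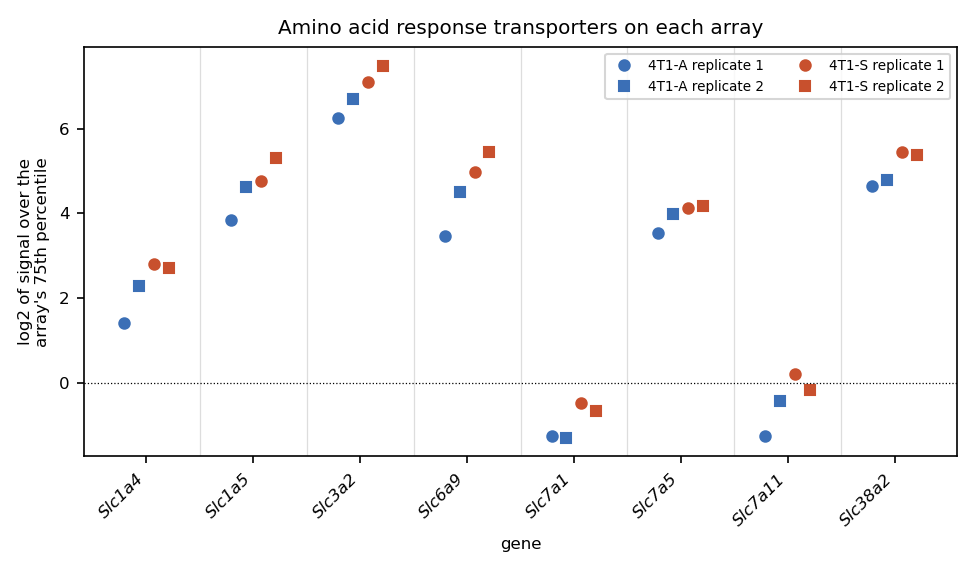
Log2 of the scaled signal on each array for the 8 amino acid response transporters tested (circles for replicate 1, squares for replicate 2, blue for 4T1-A, red for 4T1-S). Both 4T1-S arrays lie above both 4T1-A arrays in each gene, and 4T1-A replicate 1 is lowest in 7 of the 8.

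Among other genes of this pathway, 8 regulators of amino acid transporters were tested, with 1 risen, 0 fallen and 7 not passed. Of all genes tested, 4 percent were called higher and 3.02 percent lower. Without adjustment 1 regulator was higher and 0 lower at p under 0.05, beside 20.5 and 8.2 percent of all genes tested. Sesn2, a leucine sensor that restrains mTORC1 and is induced by stress, gave 2.37 and 4.05 on the 4T1-A arrays, then 7.71 and 7.10 on the 4T1-S arrays and rose 2.38-fold (1.25 ± 0.27, limma adjusted p = 0.0352). Leaving out the first 4T1-A array, the first 4T1-S array or the second 4T1-S array ended its call (adjusted p = 0.0903, 0.167 and 0.152). So did scaling to the median (0.0866), quantile normalization (0.0595), normexp (0.0591), cyclic loess (0.0533), spike-in scaling and no filter (0.127). Atf4 itself differed by 0.42 ± 0.22 (adjusted p = 0.257), Ddit3, a stress factor downstream of it, by 0.76 ± 0.36 and Myc by 0.15 ± 0.18. Ddit3 showed the same wide gap in 4T1-A, with 2.03 and 4.69, against 5.18 and 5.31 in 4T1-S, and differed by 0.16 (0.868) without 4T1-A replicate 1 and by 1.37 (2.18e-04) without 4T1-A replicate 2.

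Of 11 tested genes of glutamine, cystine and amino acid use, limma called 0 higher and 0 lower. Without adjustment 1 was higher and 0 lower at p under 0.05, beside 20.5 and 8.2 percent of all genes tested. Asns, asparagine synthetase and a target of ATF4, gave 125 and 117 on the 4T1-A arrays, then 166 and 116 on the 4T1-S arrays, with overlap (0.20 ± 0.22, limma adjusted p = 0.596). Its difference turned to -0.06 without 4T1-S replicate 1. Chac1, which degrades glutathione and is an ATF4 target, gave 47.5 and 92.8 on the 4T1-A arrays, then 100 and 122 on the 4T1-S arrays (0.74 ± 0.31, adjusted p = 0.170), and differed by 0.25 (0.773) without 4T1-A replicate 1 and by 1.22 (0.00132) without 4T1-A replicate 2. Phgdh, the first enzyme of serine synthesis, differed by 0.00 ± 0.18, and its arrays overlapped.

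Of 10 tested genes of amino acid sensing at the lysosome, 0 rose, 1 fell and 9 did not pass. Of all genes tested, 4 percent were called higher and 3.02 percent lower. Without adjustment 2 of the 10 were higher and 1 lower at p under 0.05, beside 20.5 and 8.2 percent of all genes tested. Slc36a4, a proton-independent proline and tryptophan carrier, gave 0.0903 and 0.0944 on the 4T1-A arrays, then 0.05 and 0.0429 on the 4T1-S arrays, where it was not above background. In 4T1-S it was at least 1.61-fold lower (fitted difference -1.0 ± 0.19, limma adjusted p = 0.0239), but normexp gave -0.12 (0.523), and it did not pass without either 4T1-S array (0.0900 and 0.150), with spike-in scaling or with no filter (0.0910). Mtor (0.11 ± 0.23) and Rptor (0.16 ± 0.20) did not pass.

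Carriers of the Slc16 family were tested for 7 of 14 genes, of which limma called 0 higher and 0 lower. Without adjustment 1 was higher and 0 lower at p under 0.05, beside 20.5 and 8.2 percent of all genes tested. Slc16a1, the lactate and pyruvate carrier MCT1, gave 6.07 and 5.62 on the 4T1-A arrays, then 6.64 and 6.0 on the 4T1-S arrays, with overlap (0.11 ± 0.19, 95% interval -0.32 to 0.54, limma adjusted p = 0.735). The difference was -0.29 with the mean of its probes.

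A second Slc16a1 probe gave 11.1 and 4.34 on the 4T1-A arrays, then 3.34 and 3.88 on the 4T1-S arrays, so that 4T1-A replicate 1 alone stood high (-0.95 ± 0.40, adjusted p over all probes 0.193). The third probe gave -0.03. The 3 probes differ by more than 1 on the log2 scale, so the gene has no single value here.

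Slc16a3, the lactate exporter MCT4 that hypoxia induces, was dim, at 0.0783 and 0.0453 on the 4T1-A arrays, then 0.0718 and 0.0809 on the 4T1-S arrays, and the sub-lines overlapped (0.36 ± 0.27, limma adjusted p = 0.425). It turned to -0.04 with cyclic loess and without 4T1-A replicate 2. Slc16a6, a ketone body carrier, gave 3.94 and 2.27 on the 4T1-A arrays, then 3.34 and 2.32 on the 4T1-S arrays, with a wider gap within the sub-lines than between them (-0.10 ± 0.30). The aromatic amino acid carrier Slc16a10 (-0.39 ± 0.21) and the orphans Slc16a13 (-0.24 ± 0.21) and Slc16a4 (0.60 ± 0.20, adjusted p = 0.104) did not pass. Of the hypoxia-responsive carriers Slc2a1, Slc2a3 and Slc16a3, 2 were tested and limma called 0, with 0 at an unadjusted p under 0.05.

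Bsg, the chaperone that brings MCT1 and MCT4 to the surface, gave 9.16 and 13.0 on the 4T1-A arrays, then 12.2 and 10.7 on the 4T1-S arrays (0.06 ± 0.23, limma adjusted p = 0.879). Its direction turned without 4T1-A replicate 1 (-0.19) or 4T1-S replicate 1 (-0.03). Emb, the other chaperone, was dim and above background on 1 of 2 4T1-A arrays (0.62 ± 0.18, adjusted p = 0.0803). Of these 2 limma called 0, with 1 higher at an unadjusted p under 0.05, beside 20.5 percent of all genes tested.

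Of 10 tested genes of glucose use and its control, limma called 0 higher and 0 lower. Without adjustment 2 were higher and 0 lower at p under 0.05, beside 20.5 and 8.2 percent of all genes tested. Txnip, which removes GLUT1 from the surface, gave 0.625 and 1.96 on the 4T1-A arrays, then 2.28 and 2.19 on the 4T1-S arrays (1.01 ± 0.46, limma adjusted p = 0.189), and the low array was again 4T1-A replicate 1. Without 4T1-A replicate 1 the difference was 0.19 (adjusted p = 0.836), and without 4T1-A replicate 2 it was 1.84 (4.18e-07). Hk2, the hexokinase of many tumours, gave 2.31 and 2.26 on the 4T1-A arrays, then 2.97 and 2.76 on the 4T1-S arrays, with no overlap (0.32 ± 0.18, adjusted p = 0.282). Hk1 differed by -0.60 ± 0.29 and Ldha, which makes lactate, by 0.12 ± 0.20.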

How the data were processed

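Total RNA of 4 samples was measured on one-colour arrays of 1 design. The authors read spot intensity values with Agilent Feature Extraction 9.1, as the headers and the submitters' processing notes state. The deposited processed intensity is background-subtracted and spatially detrended, per the file headers, and not scaled between arrays. Flags for spots are other deposited columns. In the deposited series table each value is a ratio of processed intensity to its array's 75th percentile, as found from the values. Its normalization is not given in the sources used here.

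The log2 of the processed intensity was taken relative to the array's 75th percentile, dropping outlier-flagged spots and averaging spots of the same probe. Members kept the gene name in the files. The other 41028 probes were named by RefSeq accession (22830) or by symbol, older ones included (9743), from a GRCm38.p6 table, and 8455 kept the file's name. Differences were tested 2-sided in limma 3.58.1 (R 4.3.3) by lmFit, then eBayes, on 2 residual degrees of freedom over 16156 genes and, separately, 23669 probes, with no block. Bounds set the brighter sub-line's mean against, per array of the dimmer one, the higher of its own signal and the lowest signal above background. They carry no sampling error. The procedure was tested on simulated data. The values of 1 tested gene are not reported here, but it stays in the counts.

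The members, lists and alternatives were chosen with earlier results of these data known. Named by rule were all called members, members of general interest, the brightest of each family, those above background in 1 sub-line only, those whose probes lay over 1 apart, and called genes of the other lists with Bsg, Txnip, Asns and Hk2. The remaining genes given with values, such as Slc7a7, were named after their values were seen.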

Additional observations from a re-analysis of the deposited data

How the results depend on the processing

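The replicate numbers are shared between the sub-lines, and the deviations of same-numbered arrays correlated at 0.42 across genes, but the labels tie no number to a culture or day and there are only 2 pairs. With the replicate number as a block, transporter genes called higher were 15 in place of 1, while 15.6 percent of all genes were called higher. Probes called higher were 17 in place of 1, beside 12.7 percent of all probes. The calls lower were unchanged at 2 genes and 2 probes, beside 7.23 percent of all genes and 7.03 percent of all probes. Normexp, scaling to the median, quantile normalization, cyclic loess and spike-in scaling gave 0 transporter genes called higher. No filter on background and the filter on all 4 arrays also gave 0. Over all genes tested the shares in these settings ran from 0.266 to 2.17 percent. Transporter genes called higher numbered 3 with an intensity trend and robust fitting (4.05 percent of all genes) or with the mean of probes (4.94 percent). Genes called lower numbered 1 with normexp or the filter on all 4 arrays, beside 1.78 and 2.21 percent of all genes. They numbered 0 with spike-in scaling or no filter, beside 0.749 and 0.629 percent. Probes called higher numbered 0 with scaling to the median, quantile normalization, cyclic loess, spike-in scaling, no filter and the filter on all 4 arrays. Over all probes the shares in these settings ran from 0.233 to 1.31 percent. With an intensity trend 2 probes were called higher, beside 2.25 percent of all probes. Probes called lower numbered 1 with normexp or the filter on all 4 arrays, beside 1.24 and 1.49 percent of all probes. They numbered 0 with spike-in scaling or no filter, beside 0.693 and 0.501 percent. Leaving out 1 array gave 0 to 10 genes and 0 to 12 probes higher, the most without 4T1-A replicate 2, and 0 to 3 genes and 0 to 3 probes lower. The filter on all 4 arrays left Slc3a1 and Slc2a5 untested. The deposited series table kept all 3 gene calls. Of the 3 called genes, Slc5a3 kept its call in 12 of 15 settings, Slc2a5 in 9 of 14 and Slc3a1 in 6 of 14, with no change of direction. Among the genes named by rule, those that turned sign were Asns, Bsg, Slc16a1, Slc16a3 and Slc2a1, none of which was called. Asns gave -0.09 with scaling to the median and -0.06 without 4T1-S replicate 1. Bsg gave -0.23 with scaling to the median, -0.19 without 4T1-A replicate 1 and -0.03 without 4T1-S replicate 1. Slc16a1 gave -0.18 with scaling to the median and -0.29 with the mean of probes. Slc16a3 gave -0.04 with cyclic loess or without 4T1-A replicate 2. Slc2a1 gave -0.19 with scaling to the median and -0.01 without 4T1-A replicate 1 or 4T1-S replicate 2. Other genes also turned with 1 array left out, such as Slc16a6 (0.29 without 4T1-A replicate 1) and Slc6a6 (-0.06 without 4T1-A replicate 2). Scaling to the median shifts every gene alike and moved the median of all genes from 0.13 to -0.16. The 4 turns under it among the genes named by rule are that shift. Leaving out 1 array gave at most 0.46 for Asns, 0.32 for Bsg, 0.75 for Slc16a3 and 0.20 for Slc2a1. Of all genes, 647 were called higher and 488 lower, and this split was 190 and 888 with scaling to the median, 251 and 536 with cyclic loess, 266 and 466 with quantile normalization and 43 and 121 with spike-in scaling. The cause was not tested. Members not well above background, 39 of 90 on every array, have no measured level here.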
